A study of Mus musculus with 55 samples.

Results

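The heat shock and chaperone genes described here are Hspa1a, Hspa1b, Hspa5, Hspa8, Hsp90aa1, Hsp90ab1, Dnajb1, Hspb1, Hsph1 and Hspd1. These 10 genes were chosen by name from the 45318 Ensembl identifiers of the count tables, with no threshold on a measured value. The choice was made with earlier results of these data known. All 10 were found, and all 10 were among the 18283 genes that passed the filter on low counts. RNA of the ventral dentate gyrus, taken as tissue punches, was sequenced from 54 male C57/BL6J mice, 1 mouse per RNA sample. From a juvenile age the mice lived in standard housing (SH), in small groups in plain cages, or in an enriched environment (EE), in larger groups with tunnels, objects and running wheels. In each housing, control mice were left unstressed, and other mice went through chronic social defeat stress (CSDS), in which the mouse is attacked by an aggressive CD1 male on successive days. The defeated mice were then classed as resilient (RES) or susceptible (SUS) from a test of social interaction. The groups held 10 SH control, 7 SH RES, 10 SH SUS, 9 EE control, 9 EE RES and 9 EE SUS mice. Running, objects and group size differed together between EE and SH and cannot be told apart, and which mice shared a cage, litter or sequencing run is not given in the sources used here. RES and SUS were assigned by behavior after defeat, not by treatment.

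Chaperones bind proteins that are newly made, unfolded or damaged and keep them from aggregating. In the cytosol, HSP70 proteins take up a client with the help of J-domain partners such as DNAJB1, exchange nucleotide with the help of HSP110 (Hsph1), and pass many clients on to HSP90. BiP, the product of Hspa5, is the HSP70 of the endoplasmic reticulum (ER), and HSP60, the product of Hspd1, folds proteins in mitochondria. Heat shock factors raise the cytosolic genes through heat shock elements in promoters, and the unfolded protein response raises Hspa5 and other ER chaperones through ER stress elements. In brain, Hspa8 and both HSP90 genes are made constitutively and abundantly, whereas Hspa1a and Hspa1b are kept low until cells are stressed.

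The sequences before the start sites are shown for the 5 genes whose level differed between EE and SH, because they carry the elements named above. RefSeq promoter windows of build GRCm38.p6 were at hand for 7 of the 10 genes, and motifs were searched on both strands in the 250 bases before each start. The 2-unit heat shock element was taken as GAANNTTC or TTCNNGAA, where N is any base. The 3-unit element, which contains it, has one more GAA or TTC unit in alternation after a gap of any 2 bases. The ER stress element was taken as CCAAT and CCACG with any 9 bases between them. Capitals mark the fixed letters of a match. Hspa5 and Hsph1 are shown as short stretches, since GENCODE annotates exons of these genes that reach into their windows, over 120 bases for Hspa5 and 40 for Hsph1, and these exons overlap the stretches shown. The stretches are Hspa1a at chr17:34972157-34972406 on the minus strand, Hspa1b at chr17:34959239-34959488 on the minus strand, Hspb1 at chr5:135887669-135887918 on the plus strand, Hspa5 at chr2:34772020-34772048 on the plus strand and Hsph1 at chr5:149636351-149636380 on the minus strand.
Hspa1a: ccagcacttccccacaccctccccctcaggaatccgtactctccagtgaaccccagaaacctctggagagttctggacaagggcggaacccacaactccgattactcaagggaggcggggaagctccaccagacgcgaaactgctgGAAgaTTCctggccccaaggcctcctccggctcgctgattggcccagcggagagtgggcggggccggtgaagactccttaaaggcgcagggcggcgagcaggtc
Hspa1b: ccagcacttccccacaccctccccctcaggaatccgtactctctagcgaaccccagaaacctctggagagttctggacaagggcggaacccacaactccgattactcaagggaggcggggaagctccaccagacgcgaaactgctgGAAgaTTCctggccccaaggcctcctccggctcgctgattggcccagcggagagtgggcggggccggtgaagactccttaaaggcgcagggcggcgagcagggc
Hspb1: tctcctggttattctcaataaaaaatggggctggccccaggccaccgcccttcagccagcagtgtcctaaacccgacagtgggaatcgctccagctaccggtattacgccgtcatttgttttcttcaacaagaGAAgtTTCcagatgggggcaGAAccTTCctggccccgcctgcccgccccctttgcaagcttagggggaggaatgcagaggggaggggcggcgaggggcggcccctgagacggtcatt
Hspa5: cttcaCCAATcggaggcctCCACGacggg
Hsph1: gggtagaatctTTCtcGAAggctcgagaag

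Hspa1a and Hspa1b, neighbours on chromosome 17, shared 250 upstream bases except for 3, C44T, T47C and T249G, with the Hspa1a base first and positions counted from 1 at the 5′ end of the stretch. Each held 1 2-unit heat shock element, starting 104 bases before the start, and Hspb1 held 2, starting 117 and 97 bases before it. The Hsph1 element began 33 bases before the start, and the Hspa5 ER stress element 65 bases before it. Among the 7 genes with a window, 5 held a 2-unit element, against 3932 of 27025 genes in the table (12.8% of its 32851 windows). Hspd1 was the only one of the 7 with a 3-unit element, held by 139 of the 27025 genes (0.466% of windows). Hspa5 was the only one with the ER stress element, held by 35 genes (0.113% of windows). The Hspd1 match lay in a window whose 250 bases are all annotated as part of the Hspd1 gene. Dnajb1 had no match in its windows, of which 1 lay wholly in the Dnajb1 gene, with 211 of its 250 bases coding.

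Levels are given as CPM, the count of a gene scaled to a common library total with TMM factors, and the total gene count per mouse ran from 16760009 to 45872357 with a median of 21552884. The markers of dentate granule cells were present in every mouse, with Prox1 at 79.7 to 210.2 CPM and the lowest of the 5 markers, C1ql2, at 63.0 CPM or more. Ttr, the secreted protein of the choroid plexus, ran from 0 to 872 CPM across mice, so punches differed in what they held besides dentate gyrus. In bulk tissue, fewer cells of a type and less RNA per cell cannot be told apart.

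Compared between genes per kilobase of annotated exon, Hspa8 and both HSP90 genes stood far above Hspa1a, Hspa1b and Hspb1. Hspa8 led with 470 CPM per kb ± 48.1 (SD, n = 54), followed by Hsp90ab1 at 387 ± 31.0 and Hsp90aa1 at 307 ± 36.3 CPM per kb. Hspa5 (80.1 ± 15.1) and Hspd1 (73.0 ± 4.49) came next, Hspa5 being the higher of these in 38 of 54 mice, so that their order was not the same in every mouse. Hsph1 (34.0 ± 4.04), Dnajb1 (12.6 ± 0.883) and Hspa1b (4.21 ± 0.707) followed in that order. Hspb1 (2.62 ± 0.869) and Hspa1a (2.49 ± 0.311 CPM per kb) closed the order and did not separate, with Hspb1 above Hspa1a in 27 of 54 mice. These per-length levels are lower limits for genes with near-identical copies, since read pairs that map to several places were not counted. When the transcripts were divided into overlapping stretches of a read's length, 43.8% of the stretches of Hspa1a and 44.8% of those of Hspa1b occurred in another gene, 1200 of them in each other, and 41.6% of those of Hspb1 in the pseudogene Hsp25-ps1. The shares were 32.7% for Hsp90aa1, 25.1% for Hspa8, 19.1% for Hspd1 and 0 for Hspa5, Hsp90ab1, Dnajb1 and Hsph1.

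**Figure D1:**
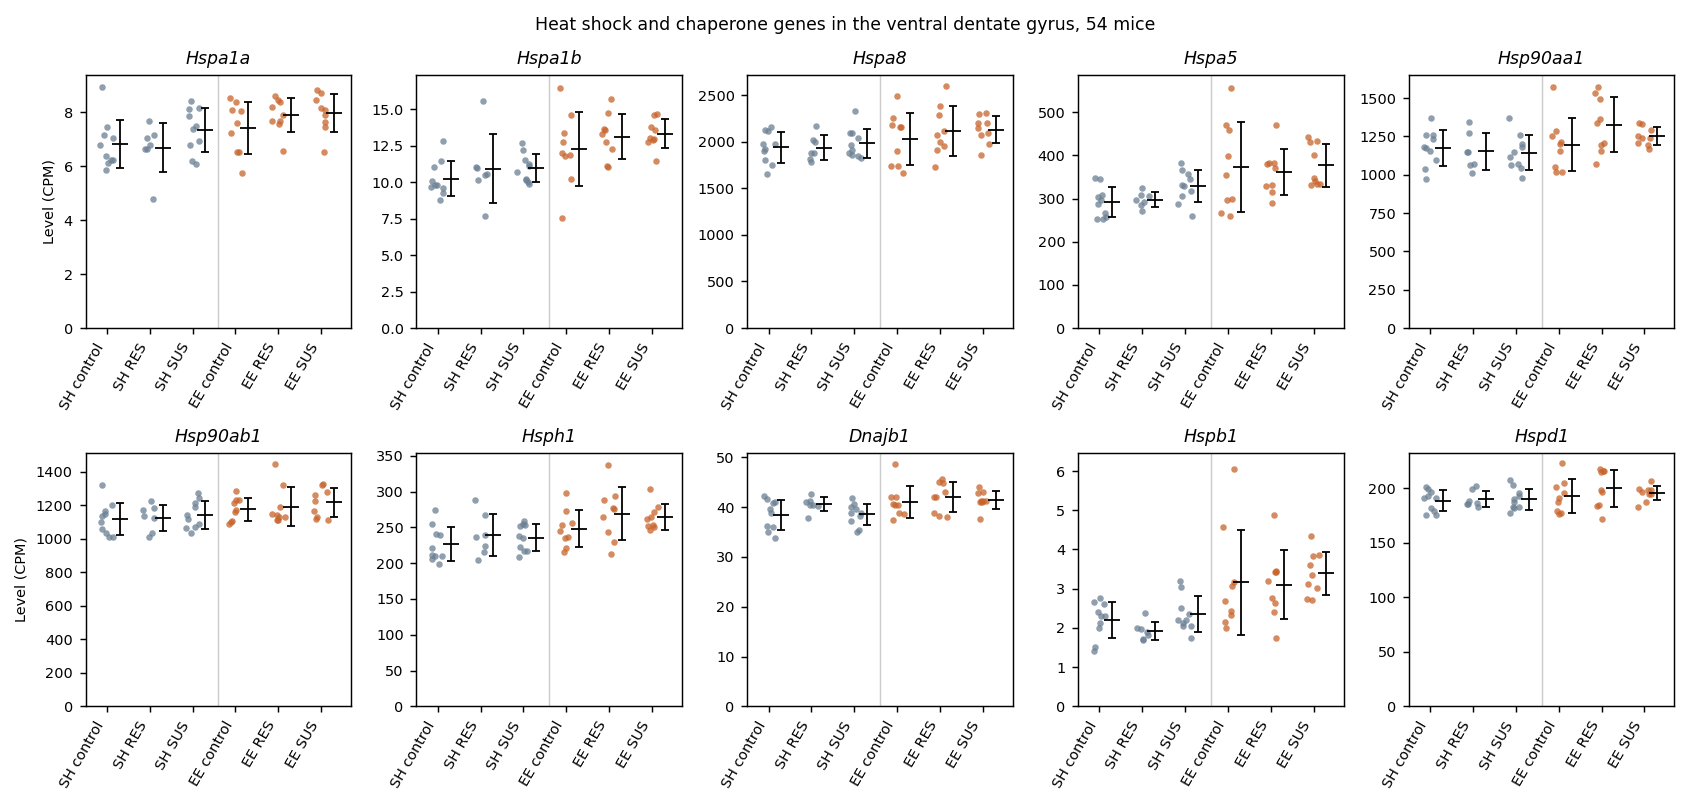
Level of each gene (CPM, vertical axes starting at 0) in the 54 mice by group, with SH mice in grey-blue and EE mice in orange, each point 1 mouse and the bar the mean ± SD of the group. Hspb1, Hspa1b and Hspa5 sit higher in the EE groups of each phenotype, and the EE and SH groups overlap for every gene.

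The difference that the 10 genes shared was one of housing. Averaged over the control, RES and SUS groups, every one of the 10 was higher in EE than in SH mice, with log2 fold changes from 0.05 for Hspd1 to 0.58 for Hspb1 and a median of 0.14, against a median of 0.004 over all genes tested. The edgeR quasi-likelihood test called 5 of the 10 at an adjusted p under 0.05, all higher in EE, namely Hspb1, Hspa1b, Hspa5, Hsph1 and Hspa1a. Over all genes, this comparison called 2.42% in either direction and 0.881% as higher in EE. All 10 had an unadjusted edgeR p under 0.05 in that direction, which 8.93% of all genes had, and 53% of all genes had a log2 fold change above 0. Since the 10 genes were chosen with earlier results of these data known, these shares are a description and not a test of the set.

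Hspb1 encodes the small heat shock protein HSP27 (HSP25 in mouse), which holds unfolded proteins and binds the cytoskeleton. Its level was low. In SH mice it ran from 1.42 through a median of 2.30 to 2.77 CPM in controls, from 1.70 through 1.90 to 2.37 in RES, and from 1.75 through 2.21 to 3.20 in SUS mice. In EE mice it ran from 1.99 through 2.68 to 6.05 CPM in controls, from 1.75 through 3.19 to 4.89 in RES, and from 2.72 through 3.35 to 4.35 in SUS mice. The housings overlapped in every phenotype, but 25 of 27 EE mice were above the SH median of 2.13 CPM, and 11 were above every SH mouse. The mean was 2.19 ± 0.431 CPM in SH and 3.22 ± 0.946 CPM in EE mice (SD, n = 27 each), a log2 fold change of 0.58 ± 0.10 (SE, edgeR adjusted p = 0.00045). The counts behind these values were few, 31 to 139 read pairs per mouse. Hspb1 was also the only one of the 10 with a difference among the 6 groups at an adjusted p under 0.05 (edgeR adjusted p = 0.018), a test that called 0.35% of all genes.

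Hspa1a and Hspa1b encode nearly the same inducible HSP70. Hspa1b ran from 7.66 to 15.6 CPM with a median of 10.5 in SH mice, and from 7.55 to 16.4 CPM with a median of 12.9 in EE mice. All but 2 of the 27 EE mice were above the SH median, and 2 were above every SH mouse. The lowest value of all was also that of an EE mouse, a control. Its log2 fold change was 0.27 ± 0.05 (SE, edgeR adjusted p = 0.0032). Hspa1a ran from 4.80 to 8.92 CPM in SH and from 5.77 to 8.83 CPM in EE mice, with medians of 6.93 and 7.90, and 22 of 27 EE mice were above the SH median. The highest Hspa1a value was that of an SH control mouse. The log2 fold change of Hspa1a was 0.16 ± 0.05 (SE, edgeR adjusted p = 0.044), a call close to the threshold that was lost in 28 of 54 fits that each left out 1 mouse, with the largest adjusted p, 0.082, without SH RES mouse 1. With counts that ignore strand, Hspa1a had the same log2 fold change of 0.16 with a larger SE of 0.06 (edgeR adjusted p = 0.136). Gm20481 lies over Hspa1a on the opposite strand, at a median count of 1.

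Hspa5 encodes BiP, which folds proteins in the ER and keeps the sensors of the unfolded protein response inactive. In SH mice it ran from 253 to 349 CPM in controls, from 272 to 324 in RES and from 260 to 382 in SUS mice, with medians of 293, 297 and 331 CPM. In EE mice it ran from 260 to 555 CPM in controls, from 290 to 470 in RES and from 331 to 442 in SUS mice, with medians of 355, 372 and 347 CPM. The lowest EE controls lay among the SH mice, whereas 11 of 27 EE mice were above every SH mouse. The mean was 307 ± 35.6 CPM in SH and 371 ± 70.6 CPM in EE mice (SD, n = 27 each), a log2 fold change of 0.28 ± 0.06 (SE, edgeR adjusted p = 0.0058). The spread of Hspa5 between mice of a group was large for its level, with a biological coefficient of variation of 0.149 that exceeded that of 98.4% of 502 genes of like expression.

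Hsph1 encodes HSP110, the nucleotide exchange partner of HSP70. It ran from 199 to 289 CPM with a median of 235 in SH mice and from 213 to 337 CPM with a median of 256 in EE mice, and 23 of 27 EE mice were above the SH median. The log2 fold change was 0.16 ± 0.04 (SE, edgeR adjusted p = 0.021).

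The other members were higher in EE by values that did not pass the adjusted threshold of edgeR. Dnajb1, the J-domain partner that delivers clients to HSP70, had a mean of 39.1 ± 2.46 CPM in SH and 41.5 ± 2.68 CPM in EE mice (SD, n = 27 each) and a log2 fold change of 0.08 (edgeR adjusted p = 0.070). It passed with DESeq2 (adjusted p = 0.0446) and with limma-voom and quality weights (adjusted p = 0.0391). Hsp90aa1, the partly inducible cytosolic HSP90, had means of 1157 ± 113 and 1258 ± 153 CPM and a log2 fold change of 0.12 (edgeR adjusted p = 0.10). Hsp90ab1, the constitutive HSP90, had a log2 fold change of 0.08 (edgeR adjusted p = 0.13). Hspa8, the constitutive HSP70 that also uncoats clathrin vesicles, had 1954 ± 151 CPM in SH and 2091 ± 233 CPM in EE mice and a log2 fold change of 0.10 (edgeR adjusted p = 0.14). Hspd1, the mitochondrial chaperonin, had the smallest value, 0.05 with a 95% confidence interval of 0.002 to 0.098 (edgeR adjusted p = 0.26), and a permutation test with 100000 resamples gave an unadjusted p of 0.0505.

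**Figure D2:**
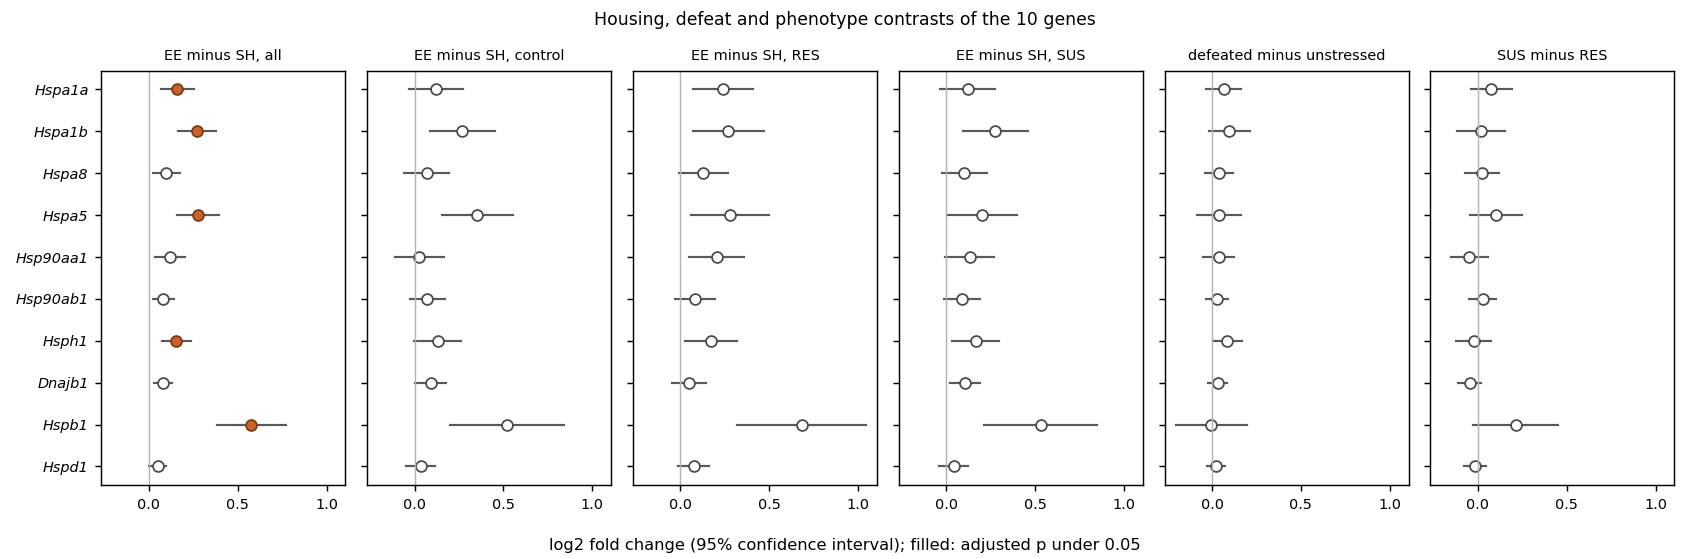
Log2 fold change of each gene with its 95% confidence interval for EE against SH over all mice, for EE against SH within control, RES and SUS mice, for defeated against unstressed mice and for SUS against RES mice, with filled points at an edgeR adjusted p under 0.05. All housing values lie above 0 and the 5 filled points are those of the comparison over all mice.

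Within each phenotype the housing difference had the same sign for all 10 genes, and edgeR called none of the 10 at the smaller group sizes. Between the RES groups, DESeq2 called Hspb1 (adjusted p = 0.0257). The comparison called 0.00547% of all genes between the control groups, 0.273% between the RES groups and 0.00547% between the SUS groups. For Hspb1 the log2 fold changes were 0.52 ± 0.16 in control, 0.68 ± 0.18 in RES and 0.53 ± 0.16 in SUS mice (SE), with edgeR adjusted p of 0.77, 0.063 and 0.40. In RES mice, 8 of 9 EE mice were above every SH mouse for Hspb1, and the other lay among them. In control mice 4 of 9 and in SUS mice 5 of 9 EE mice were above every SH mouse. For Hspa1b the 3 values were 0.27 ± 0.09, 0.27 ± 0.10 and 0.28 ± 0.09. The EE mice above every SH mouse were 3 of 9 in control, 1 of 9 in RES and 8 of 9 in SUS mice. Hspa5 had 0.35 ± 0.10, 0.28 ± 0.11 and 0.20 ± 0.10. All 10 were also tested singly by two-sided exact permutation of the mice, without adjustment. Only Hspb1, Hspa1b and Hspa5 had p under 0.05 in each phenotype, from 0.000249 for Hspa1b in SUS mice to 0.0482 for Hspa1b in control mice. They are picked out here after the values were seen, from the same mice as the comparison over all phenotypes. The share of all genes that pass this permutation test was not computed. For Hsp90aa1 the value in control mice was 0.03 ± 0.07, with no stable sign, and it turned to -0.03 without EE control mouse 5. In RES mice it was 0.20 ± 0.08. No interaction of housing with defeat, or of housing with SUS, was called for any of the 10 (0% of all genes called in both), with the smallest edgeR adjusted p of a member 0.77 for Hsp90aa1.

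EE control mouse 5 had the highest level of its group for 9 of the 10 genes, and EE control mouse 3 the lowest for 8 of the 10. The same was seen for SH RES mice 4 and 1, the former highest for 7 and the latter lowest for 7 of the 10 genes. Without EE control mouse 5, the log2 fold change of EE against SH over all phenotypes was 0.10 for Hsp90aa1 and 0.04 for Hspd1. Hspb1, Hspa1b, Hspa5 and Hsph1 were called in each of the 54 fits that left out 1 mouse, with log2 fold changes of 0.52 to 0.60, 0.25 to 0.31, 0.24 to 0.29 and 0.14 to 0.17.

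For social defeat none of the 10 was called by the same test. Between defeated and unstressed mice over both housings 0.0438% of all genes were called, and the members' log2 fold changes ran from -0.01 for Hspb1 to 0.10 for Hspa1b. The smallest unadjusted p was that of Hsph1, at 0.09 ± 0.04 (SE, unadjusted edgeR p = 0.041, adjusted p = 0.99), and the 95% interval of Hspb1, from -0.20 to 0.19, left room for a change in either direction. Between SUS and RES mice over both housings, 0% of all genes were called. Hspb1 had the largest difference, 0.21 ± 0.12 higher in SUS mice (unadjusted edgeR p = 0.082, adjusted p = 0.999) with a 95% interval of -0.03 to 0.45, and Hspa5 followed with 0.10 ± 0.07. All 10 were also tested singly by permutation of the mice, with 100000 resamples and no adjustment. Hspb1 had the smallest permutation p of the 10, 0.029, followed by Hspa5 with 0.093, and it is picked out after the values were seen. For the other 8 genes the log2 fold changes lay between -0.05 for Hsp90aa1 and 0.08 for Hspa1a. All 5 red cell markers were higher in defeated than in unstressed mice by the edgeR test, with a median log2 fold change of 1.08, and their part in the members' values was not tested.

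Set against the controls of their own housing, SH SUS, SH RES, EE SUS and EE RES mice showed no called member either. These comparisons called 0.0328%, 0%, 0% and 0% of all genes, and SH SUS against SH RES and EE SUS against EE RES also called 0%. Hsp90aa1 in EE RES against EE control mice had the smallest unadjusted edgeR p of the members, at 0.15 ± 0.07 (SE, unadjusted edgeR p = 0.039, adjusted p = 0.62). The EE RES group ran from 1072 to 1575 CPM and the EE control group from 1015 to 1572 CPM, and exact permutation gave p = 0.125. Without adjustment, exact permutation gave p under 0.05 only within SH. These were Hspa5 in SUS against control mice (0.0421), and Hspb1 (0.0275) and Dnajb1 (0.0466) in SUS against RES mice. Hspa5 was 0.17 ± 0.10 higher in SH SUS than in SH control mice (unadjusted edgeR p = 0.086) and 0.01 ± 0.10 higher in EE SUS than in EE control mice (unadjusted edgeR p = 0.887). RES and SUS mice of a housing were compared with the same control mice, so these values are not independent of each other.

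From mouse to mouse the 10 genes moved together. After the mean of each group was removed, Pearson's r of the log2 level over the 54 mice was positive in all 45 pairs, from 0.242 for Hsp90ab1 with Hspb1 to 0.888 for Hsp90aa1 with Hspd1, with a median of 0.504. By permutation within groups, with Benjamini-Hochberg adjustment over the 45 pairs, r passed an adjusted p of 0.05 in 41 pairs and Spearman's rho in 37. Hsp90aa1, Hspa8 and Hspd1, abundant chaperones of cytosol and mitochondria, formed the tightest trio. Hsp90aa1 with Hspd1 gave rho = 0.862, Hspa8 with Hspd1 r = 0.836 and rho = 0.803, and Hspa8 with Hsp90aa1 r = 0.832 and rho = 0.784, each with a permutation p of 1e-05, the smallest that 100000 resamples can give, and an adjusted p of 3e-05 for r. These 3 pairs kept r of 0.859, 0.807 and 0.795 without the 2 mice farthest from the median of the first gene. Within SH mice they gave 0.886, 0.844 and 0.814 and within EE mice 0.898, 0.832 and 0.850. Hspa1a with Hspa1b gave r = 0.715 and rho = 0.636 (permutation p = 1e-05, adjusted p = 3e-05 for r), with 0.645 without the 2 farthest mice, 0.66 within SH and 0.792 within EE mice. As a background, r with a member was above 0 for 47.4% (Hsph1) to 50.4% (Dnajb1) of all other genes. An r over 0.5 was reached in 23 of the 45 pairs, and by 0.241% of all other genes with Hspb1 to 7.02% with Hspa8. The median r with all other genes lay between -0.0153 and 0.0021 for each member. Some pairs that passed were not rare by this measure. With Hspa8, 11.9% of all genes had r as high as that of Hsp90ab1 (0.395). The share of all genes that pass the permutation test was not computed.

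**Figure D3:**
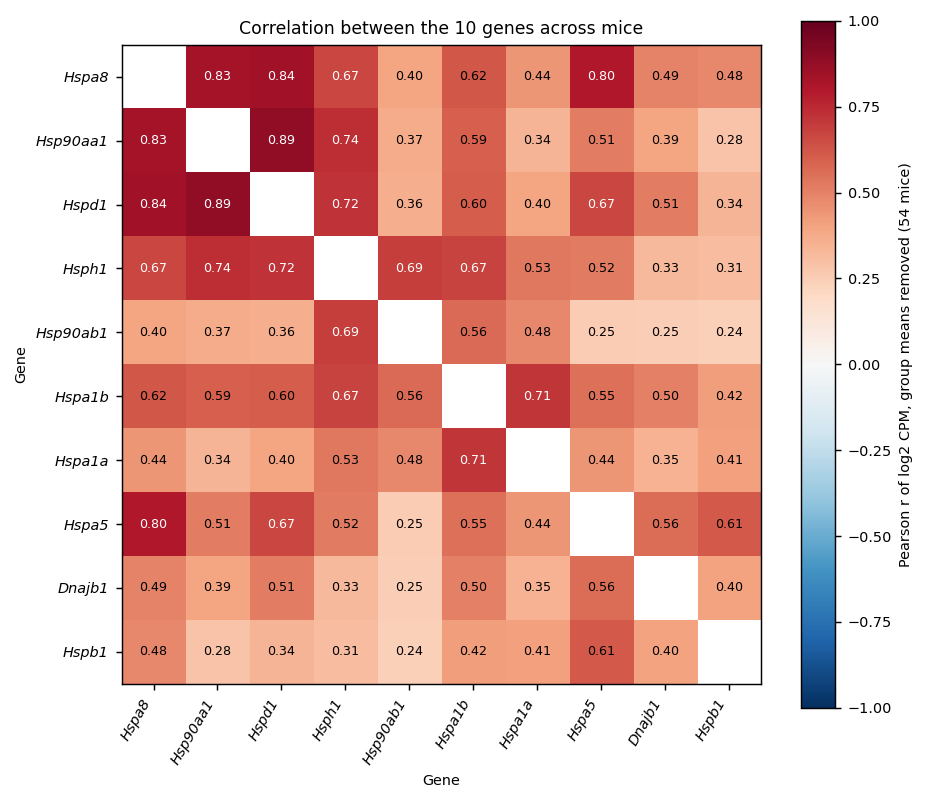
Pearson's r of log2 CPM between the 10 genes over 54 mice, after the mean of each group was removed, from blue (-1) through white (0) to red (1). Every pair is positive, and the block of Hspa8, Hsp90aa1 and Hspd1 at the upper left reads 0.83 to 0.89.

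Some pairs were less stable. Hspb1 with Hsp90aa1 gave r = 0.284 and rho = 0.177 (permutation p = 0.0812 and 0.234, adjusted p = 0.085 and 0.234), 0.125 without the 2 farthest mice, 0.0174 within SH and 0.440 within EE mice. Dnajb1 with Hspd1 gave r = 0.511 and rho = 0.488 (permutation p = 0.00071 and 0.00068, adjusted p = 0.00128 and 0.00133), with 0.498 without the 2 farthest mice, 0.132 within SH and 0.769 within EE mice. Whether these r differed between housings was not tested. The score of the dentate granule cell markers, the mean z-score of the list, had a negative r with all 10 genes, from -0.224 for Hsph1 to -0.463 for Hspa1b, and the oligodendrocyte score had a positive r with all 10, from 0.0934 for Hspa5 to 0.466 for Hsp90ab1. The scores of CA3 pyramidal cells (0.0671 for Hspa5 to 0.568 for Hsp90ab1) and of choroid plexus (0.0691 for Hspb1 to 0.437 for Hsp90ab1) were positive with all 10 as well. These values are descriptions over 54 mice with group means removed. Their part in the correlations between the genes was not tested.

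The genes whose level followed Hspa5 most closely over the 54 mice were genes of the ER. By Pearson's r of the log2 level they were Pdia4 (0.965), Manf (0.944), Pdia6 (0.930), Xbp1 (0.922) and Calr (0.888), of which Pdia4 and Pdia6 are disulfide isomerases, Manf is a secreted ER stress factor, Xbp1 is a transcription factor of the unfolded protein response and Calr is a calcium-binding chaperone. With group means removed the r of Pdia4 was also 0.965. For Hspa1b the nearest were Mlec (0.826), a lectin of the ER, Hspa4l (0.788), a relative of HSP110, Hspa1a (0.778), Hsph1 (0.770) and Cabp1 (0.770), a calcium-binding protein. For Hsph1 they were Pdia3 (0.828), Ahsa1 (0.805), which activates HSP90, Il34 (0.802), Stip1 (0.793), which links HSP70 to HSP90, and Hspa4l (0.792). The closeness was looked up among all genes tested and carries no test.

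**Figure D4:**
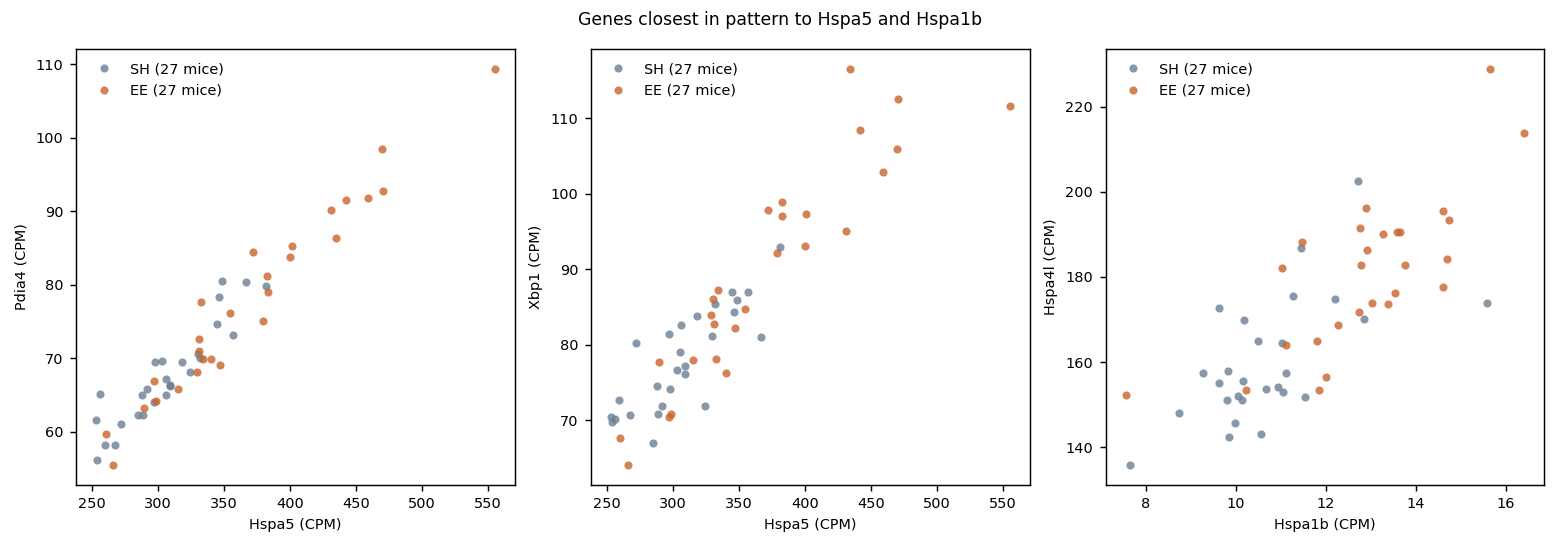
Level in each mouse (CPM) of Pdia4 and Xbp1 against Hspa5 and of Hspa4l against Hspa1b, with 27 SH mice in grey-blue and 27 EE mice in orange. Pdia4 rises with Hspa5 along a narrow band from 253 to 555 CPM of Hspa5, and the upper end of the band is made of EE mice.

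The wider chaperone families differed in how far they went with the members. These lists were also chosen with earlier results of these data known, so their counts are a description. Of 21 genes of ER chaperones and the unfolded protein response, 10 were higher in EE than in SH mice by the edgeR test and 0 were lower, and 17 had an unadjusted p under 0.05 in that direction. Over all genes 0.881% were called higher and 8.93% had such an unadjusted p, and these shares also apply to the lists below. Several of the 21 genes followed Hspa5 closely across mice, so they are not separate observations. The median log2 fold change of the 21 genes was 0.13, against 0.004 over all genes. Sdf2l1, a cofactor of BiP, had the largest value, 0.34 ± 0.08 (SE, edgeR adjusted p = 0.015), from 5.906 ± 1.002 CPM in SH to 7.462 ± 1.875 CPM in EE mice (SD, n = 27 each). Pdia4 was 0.21, Xbp1 0.20, Calr 0.19, Pdia6 0.17, Hsp90b1, the HSP90 of the ER, 0.16, Ddit3, the factor CHOP, 0.15, Pdia3 0.14, Dnajb11 0.13 and Hyou1, the ER member of the HSP110 group, 0.11 higher on the log2 scale, with adjusted p from 0.0058 for Ddit3 to 0.036 for Pdia6. Manf (0.17, edgeR adjusted p = 0.063), Herpud1 (0.10, adjusted p = 0.062) and Dnajc3 (0.11, adjusted p = 0.052) did not pass. The sensors and a main transcription factor of the response, Ern1 (0.04), Eif2ak3 (0.07), Atf6 (-0.05) and Atf4 (-0.04), were not called.

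Of 36 tested cytosolic chaperones and co-chaperones, 6 were higher and 1 was lower in EE mice, with a median of 0.04. The higher ones were Cryab (0.24 ± 0.05, edgeR adjusted p = 0.0059), a small heat shock protein like Hspb1, Hspa4l (0.18 ± 0.03, adjusted p = 0.0021), Stip1 (0.14, adjusted p = 0.047, and 0.0569 with limma-voom), Ahsa1 (0.13, adjusted p = 0.013), Dnajb2 (0.13, adjusted p = 0.0032), a J-domain protein made in neurons, and Chordc1 (0.11, adjusted p = 0.042), a partner of HSP90. Hspa2, another HSP70, was lower (-0.16 ± 0.03, edgeR adjusted p = 0.0047), from 112 ± 7.67 CPM in SH to 100.2 ± 9.43 CPM in EE mice (SD, n = 27 each). Bag3, a partner of HSP70 that heat shock factors also raise, was at 1.41 and 1.47 CPM (0.08, edgeR adjusted p = 0.63). Hsf1, the main heat shock factor, had 0.11 ± 0.04 (edgeR adjusted p = 0.12), and Hsf4 was the only one of 5 genes in the heat shock factor list called, higher by 0.27 ± 0.06 (edgeR adjusted p = 0.0055) at 4.07 CPM in SH and 4.90 CPM in EE mice.

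Mitochondrial chaperones and the cytosolic chaperonin stayed close to the background. Of 9 mitochondrial genes 0 were higher and 1, Grpel2, a nucleotide exchange factor of mitochondrial HSP70, was lower (-0.08, edgeR adjusted p = 0.029), and the median was 0.008. Hspe1, which encodes the lid of the HSP60 chamber and lies head to head with Hspd1, had 0.06 (edgeR adjusted p = 0.28). Of the 8 subunits of the chaperonin TRiC, edgeR called 0, and 0 had an unadjusted p under 0.05, with a median of 0.02. Its subunits Cct7 (0.01) and Cct6a (0.03), which had the smallest p of the list for social defeat, had edgeR adjusted p of 0.83 and 0.52 between EE and SH. Within phenotypes, Dnajb2 and Hspa4l were the only genes of these lists called, both between EE RES and SH RES mice, a comparison that called 0 genes without SH RES mouse 1 and 0 with the scores of oligodendrocytes, endothelium and granule cells as covariates. For defeated against unstressed and SUS against RES mice, none of the tested genes of the lists was called, and the smallest edgeR adjusted p was 0.85, for Hspa12a between defeated and unstressed mice.

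**Figure D5:**
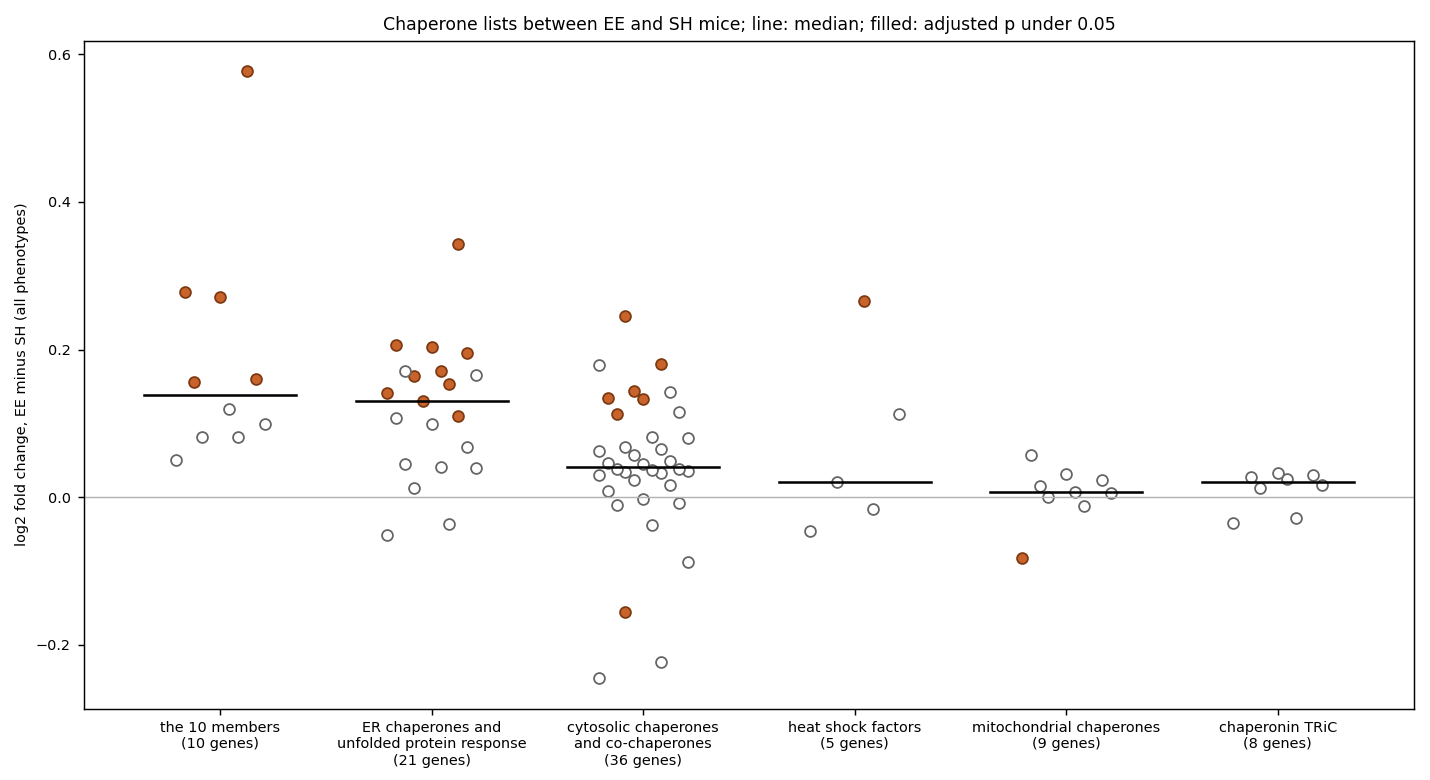
Log2 fold change of EE against SH over all phenotypes for the 10 genes and 5 lists of other chaperone genes, each point 1 gene, filled at an edgeR adjusted p under 0.05, with a line at the median of the list. The medians are 0.14 for the 10 genes, 0.13 for ER chaperones, 0.04 for cytosolic chaperones and 0.02 or less for the rest.

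Some cell markers differed with housing as well, and the 3 lists described here were picked after the data had been seen. Between EE and SH, no marker of CA1 or CA3 pyramidal cells, choroid plexus, thalamus, astrocytes, microglia or red cells passed the adjusted threshold. All 5 oligodendrocyte markers were higher in EE mice at an unadjusted p under 0.05, with a median log2 fold change of 0.27, and their summed level ran from 863 to 2122 CPM in SH and from 902 to 1973 CPM in EE mice. Mbp (0.25), a gene of myelin, passed the adjusted threshold. Of 5 endothelial markers, among which Flt1 (0.23) was called, 4 were higher at an unadjusted p under 0.05, with a median of 0.14, and their summed level ran from 113 to 156 CPM in SH and from 116 to 176 CPM in EE mice. The 5 dentate granule cell markers were all lower, with a median of -0.12, Dsp alone passing the threshold (-0.30), and their summed level ran from 723 to 1235 CPM in SH and from 628 to 1254 CPM in EE mice. With the scores of these 3 lists as covariates, an alternative chosen after the data had been seen, edgeR called 102 genes in place of 442 and 4 of the 10 members in place of 5. Hspb1 kept a log2 fold change of 0.43 ± 0.10 (edgeR adjusted p = 0.031), Hspa5 of 0.26 ± 0.07 (adjusted p = 0.039), Hsph1 of 0.16 ± 0.04 (adjusted p = 0.042) and Hspa1b of 0.21 ± 0.05 (adjusted p = 0.046), while Hspa1a had 0.14 ± 0.05 (adjusted p = 0.21). In the same fit the calls among the 21 ER genes fell from 10 to 3 with log2 fold changes such as 0.20 for Pdia4 and 0.35 for Sdf2l1, and those among the 36 cytosolic genes from 6 to 3. Hsf4 (0.24, edgeR adjusted p = 0.0675), Hspa2 (-0.12, adjusted p = 0.0543) and Grpel2 (-0.07, adjusted p = 0.228) were no longer called. Hsp90ab1 had 0.04 in place of 0.08 (unadjusted edgeR p = 0.17), and Hspd1 had an unadjusted p of 0.061. With the scores of choroid plexus and thalamus as covariates, 5 of the 10 members were called. With the score of 9 immediate early genes, 4 were called, and Hspa1a had about the same log2 fold change, 0.155 (edgeR adjusted p = 0.054). Of these 9 genes Fosb alone was called between EE and SH (0.33). The rest were mixed, from -0.22 for Fos to 0.16 for Ier2, and the mean score was -0.041 in SH and 0.041 in EE mice.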

How the data were processed

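RNA of the ventral dentate gyrus of 54 mice was prepared by the authors as stranded total RNA libraries. Per the study's methods the authors removed reads of low quality, used STAR for alignment (build GRCm38) and name featureCounts for gene quantification. The deposited files hold raw counts of read pairs per gene in the layout of STAR (unstranded, forward and reverse columns), with no normalization. The reverse column was used. Rows that name no gene were left out: multimapping pairs (8.70 to 12.1% of pairs), pairs in no gene on that strand (19.9 to 28.8%), unmapped pairs (13.9 to 19.9%) and ambiguous pairs (0.836 to 1.12%). The 55 files cover 54 mice, since EE control mouse 9 was run in 2 files, which were summed. Groups and replicate numbers came from the sample labels. Cages and sequencing batches are not given in the sources used here. Nothing beyond the labels says that the mice of a group were raised independently. Per the study's methods, housing was given by the cage, with more mice per cage in EE than in SH. The tests treat each mouse as a replicate, so mice that shared a cage are counted as independent. The p-values and SE of EE against SH are set against the spread between mice and do not cover differences between cages.

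Genes were filtered with filterByExpr (18283 kept), scaled with TMM and fitted over the 6 groups with the quasi-likelihood test of edgeR 4.0.16 (R 4.3.3), with Benjamini-Hochberg adjustment over all genes tested and a threshold of 0.05. Pooled comparisons weight groups equally. Single genes were also tested by two-sided permutation of mice, exact between 2 groups and with 100000 resamples for pooled comparisons. Correlations used log2 CPM with a prior count of 2 and group means removed. Alternatives were DESeq2 size factors, other filters, unstranded counts, limma-voom 3.58.1 with and without quality weights, DESeq2 1.42.0, the compared groups alone, a replicate block, 1 run of EE control mouse 9, marker scores as covariates, leaving out each mouse, and the study's criterion of an unadjusted p under 0.05 with a fold change above 1.3. The covariate fits with oligodendrocyte, endothelial and granule cell scores and with immediate early genes, and the repeats for pathway lists, were added after the data had been seen. The edgeR test was also run on simulated counts with independent genes and mice, which does not cover correlation between genes or shared cages. Motifs and correlations were computed with Python 3.11.15, NumPy 2.4.6 and SciPy 1.17.1, promoters came from RefSeq (GRCm38.p6) and gene positions from GENCODE vM21.

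The members and gene lists were chosen with earlier results of these data known. All 10 members were named. From the lists, genes called in a comparison were named, and for a list with none the 2 genes with the smallest p for defeat. For Hspa1b, Hsph1 and Hspa5 the 5 genes nearest in pattern were named. Manf, Herpud1, Dnajc3, Ern1, Eif2ak3, Atf4, Atf6, Hsf1, Hspe1, Bag3 and Hspa12a were named after their values were seen.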

Additional observations from a re-analysis of the deposited data

Results flagged for a closer look

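Within the 6 groups, 60 sets of values (10 genes in 6 groups) were examined by Dixon's test for 1 mouse far from the rest, and 7 passed the 95% critical value, where chance alone gives about 1 in 20, or 3. For Hspa1a these were SH control mouse 3 at 8.923 CPM with the nearest mouse at 7.457, SH RES mouse 1 at 4.798 CPM with the nearest at 6.633, and EE RES mouse 6 at 6.574 CPM with the nearest at 7.571. For Hspa1b it was SH RES mouse 4 at 15.58 CPM, with the nearest at 11.04. For Hsp90aa1 it was EE control mouse 5 at 1572 CPM, with the nearest at 1282. For Dnajb1 these were EE control mouse 5 at 48.67 CPM, with the nearest at 42.09, and EE SUS mouse 8 at 37.7 CPM, with the nearest at 41.07.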

How the results depend on the processing

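Between EE and SH over all phenotypes, where 442 genes and 5 members were called, the gene count was 242 with no low-count filter, 680 with DESeq2, 741 with limma-voom and quality weights, 102 with oligodendrocyte, endothelial and granule cell scores as covariates, and 254 to 735 when 1 mouse was left out (lowest without EE RES mouse 8, highest without SH SUS mouse 3). It also moved by more than 1.5 times without SH control mouse 3, SH RES mouse 1, SH SUS mouse 8 or EE control mouse 5. Members called ranged from 4 to 6. Within RES mice (50 genes), the count was 24 with no filter, 250 with DESeq2, 112 with quality weights, 18 with the compared groups alone, 0 with the 3 cell scores, 11 with the immediate early gene score and 0 to 292 without 1 mouse (0 without SH RES mouse 1, 292 without EE RES mouse 9), with 0 to 1 members. DESeq2 called 1 member, Hspb1. Between control groups (1 gene) it was 2 with unstranded counts, DESeq2, choroid plexus and thalamus scores or the 3 cell scores, and 1 to 4 without 1 mouse. Between SUS groups (1 gene) it was 0 with the 1 CPM filter, limma-voom or the 3 cell scores, 2 with the first run of EE control mouse 9, and 0 to 3 without 1 mouse. SH SUS against control (6 genes) gave 1 with limma-voom, with or without weights, and 2 to 8 without 1 mouse. SH RES against control gave 4 with the compared groups alone. Without 1 mouse, EE SUS against control gave 0 to 4 and EE RES against control 0 to 2 genes. Defeated against unstressed (8 genes) gave 13 with DESeq2, and the defeat by housing interaction (0 genes) gave 1 with the 3 cell scores. For any difference among groups (64 genes, 1 member), limma-voom gave 40 genes, quality weights 129 genes and 2 members, choroid plexus and thalamus scores 3 members, the 3 cell scores 22 genes and 0 members, and leaving out 1 mouse 31 to 121 genes and 1 to 3 members.

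By the study's criterion the counts were 112 genes for EE against SH over all phenotypes, 204 within control, 593 within RES and 286 within SUS mice, each with 1 member. With 0 members, they were 170 for SH SUS and 222 for SH RES against control, 355 for EE SUS and 214 for EE RES against control, 209 for SH SUS against SH RES, 201 for EE SUS against EE RES, 88 for defeat, 83 for SUS against RES, 308 for the defeat and 418 for the SUS interaction with housing.

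The sign of a log2 fold change near 0 turned in a few cases. For Hspb1 in defeated mice it was 0.000229 with unstranded counts, 0.0325 with limma-voom, 0.0616 with quality weights, 0.0228 with choroid plexus and thalamus scores, 0.00587 with the immediate early gene score, 0.02863 as a plain difference of means, and -0.0356 to 0.0825 without 1 mouse. Hspa1b between SUS and RES mice was -0.00951 with choroid plexus and thalamus scores and -0.0198 to 0.0654 without 1 mouse, where Hsph1 ran from -0.0429 to 0.000833. Dnajb1 between RES groups was -0.00374 with the 3 cell scores, and Hsp90aa1 between control groups ran from -0.0336 to 0.0523 without 1 mouse. The causes were not tested. Stip1 between EE and SH also lost its call with no low-count filter (adjusted p = 0.071), unstranded counts (0.0554), the 3 cell scores (0.13) and the immediate early gene score (0.056), at log2 fold changes of 0.139 to 0.145. Depth limits Hspb1 most among the 10 genes, at 31 to 139 read pairs per mouse. Between EE and SH over all phenotypes Hspb1, Hspa1b, Hspa5 and Hsph1 were called under every edgeR, limma-voom and DESeq2 setting tried at an adjusted p under 0.05.

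For mice with the same replicate number in different groups, the median correlation of their deviations lay between -0.04 and 0.08. Single pairs ran from -0.258 (SH SUS with EE RES) to 0.44 (SH control with EE SUS). Whether the numbers stand for a shared litter or run was not tested, and these medians cannot decide it. The main fit did not pair the mice. With the replicate block, 228 genes and 1 member, Hspb1, were called between the RES groups.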
